A study of Mus musculus with 12 samples.

Results

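Interferon regulatory factors (IRFs) and signal transducers and activators of transcription (STATs) are the transcription factors through which cells answer interferons and other cytokines. The genes described here are Irf1, Irf2, Irf5, Irf7, Irf8, Irf9, Stat2, Stat3 and Stat4, taken by name from a table of 55415 mouse gene entries, in which all 9 symbols were found. Of these 9, 8 passed the filter for testing, an FPKM (counts scaled to the exon length of the gene and to the library total) of at least 1 in at least 3 of 12 libraries. The filter left 13668 genes in all, and Stat4 was below it. The RNA came from tumours grown from CT26 cells, a BALB/c mouse colon carcinoma line, and each of 4 groups has 3 libraries. The control group was untreated, the second group received Complex 1, the third received radiation, and the fourth, called the combination, received both. By its title, the study concerns an X-ray activated platinum complex. All groups carry the same wild-type label, and the sources used here give no doses, times or ages, nor the position of the sampled tumours relative to the irradiated field.

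As background, type I interferons act through a receptor with Janus kinases attached, which phosphorylate STAT proteins. STAT2 joins IRF9 in a complex that binds interferon-stimulated response elements and switches on antiviral genes, Irf7 among them. IRF7 and IRF5 lie downstream of nucleic acid sensors and drive transcription of interferons and inflammatory cytokines. IRF1 is itself induced by interferon gamma and activates many of its target genes, while IRF2 competes with IRF1 at the same sites. IRF8 sets the identity of macrophages and some dendritic cells, STAT3 carries signals of the interleukin 6 family and of interleukin 10, and STAT4 those of interleukin 12 in T and natural killer cells.

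Short stretches of the members' promoters are shown because they hold the element types that these proteins bind, so that members can be seen as possible targets as well as carriers of the pathway. RefSeq windows of 300 bases (250 before and 50 after a start site, build GRCm38.p6) were found for 9 of 9 members, 13 windows in all. An interferon response core, GAAA followed by NN and GAAA (N is any base), was searched on both strands and was present in windows of 3 members, Irf2, Stat2 and Stat4. A STAT core, TTCNNNGAA, which reads the same on both strands, was present in windows of 3 members, Irf1, Irf2 and Irf8. Of 27025 genes with windows of this length in the RefSeq table, 3.99% held the first core in any window and 9.55% the second. Counted by window, the shares were 3.44% and 8.30% of 32851 windows. The Stat4 core lies in window 2 of that gene and not in window 1. In the lines below the capitals mark the cores, each line reads 5′ to 3′ on the plus strand, and the Stat2 core is the interferon response core read on the opposite strand.
Irf1, chr11:53769909-53769947: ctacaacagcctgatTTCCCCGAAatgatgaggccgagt
Irf2, chr8:46739495-46739544: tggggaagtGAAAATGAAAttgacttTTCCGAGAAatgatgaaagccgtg
Irf8, chr8:120736172-120736228: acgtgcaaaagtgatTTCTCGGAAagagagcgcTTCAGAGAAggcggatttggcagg
Stat2, chr10:128270261-128270300: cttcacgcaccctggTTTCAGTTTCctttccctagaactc
Stat4, chr1:52008128-52008167: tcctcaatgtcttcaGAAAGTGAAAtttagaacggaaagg

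The Irf2 stretch holds both cores, the Irf8 stretch holds 2 copies of the STAT core, and the Irf1 core starts 90 bases before the start site. A match of these letters is a description and does not show that a factor binds there.

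In the deposited table (build mm39, spans of whole genes with exons and introns), Irf1 lies at chr11:53660841-53669200 and Stat3 on the same chromosome at chr11:100775924-100830366. Irf2 (chr8:47192767-47300493) and Irf8 (chr8:121463097-121483433) share chromosome 8. The others are each on a chromosome of their own, Irf5 at chr6:29526624-29541870, Irf7 at chr7:140842619-140846394, Irf9 at chr14:55841028-55847487, Stat2 at chr10:128106428-128128718 and Stat4 at chr1:52026307-52146348. Irf7 and Stat3 are on the minus strand and the rest on the plus strand.

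Total counts were 15.6 to 19.1 M per library. The labels do not say that libraries of a group came from separate animals, so p-values measure only the spread between these libraries. In 1 control library (replicate 2) the female-specific RNA Xist was at 0.02 FPKM with 28 counts over 4 Y-linked genes, whereas the other 11 libraries had 9.20 to 14.2 FPKM and at most 1 count. Complex 1 replicate 3 and radiation replicate 2 stood apart from their groups for many of the genes below. Of the epithelial markers, Epcam was at most 0.18 FPKM and Cldn4 at 0 in 3 groups, and of 6 such markers only Krt18 passed the filter (2.81 to 7.72 FPKM). In tumour tissue, fewer cells of a type and less RNA per cell cannot be told apart.

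In control tumours the order of levels, in FPKM as mean ± SD of 3 libraries, began with Irf7 at 45.1 ± 10.01, Irf1 at 29.8 ± 2.20 and Stat2 at 21.3 ± 3.85. Stat3 at 16.1 ± 0.972, Irf9 at 13.0 ± 2.10, Irf5 at 7.47 ± 0.815, Irf2 at 6.38 ± 0.173, Irf8 at 5.36 ± 0.564 and Stat4 at 0.433 ± 0.0808 followed. No neighbours in this order overlapped between libraries. In Complex 1 tumours all neighbours overlapped except the last pair, Irf2 and Stat4. In irradiated tumours Irf1 overlapped Stat2, Stat3 overlapped Irf9, and Irf8 overlapped Irf2, and in the combination no neighbours overlapped. The order changed at 1 place: Irf8 was eighth in control and seventh, above Irf2, in the other 3 groups, separated from it by more than the spread only in the combination.

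**Figure D1:**
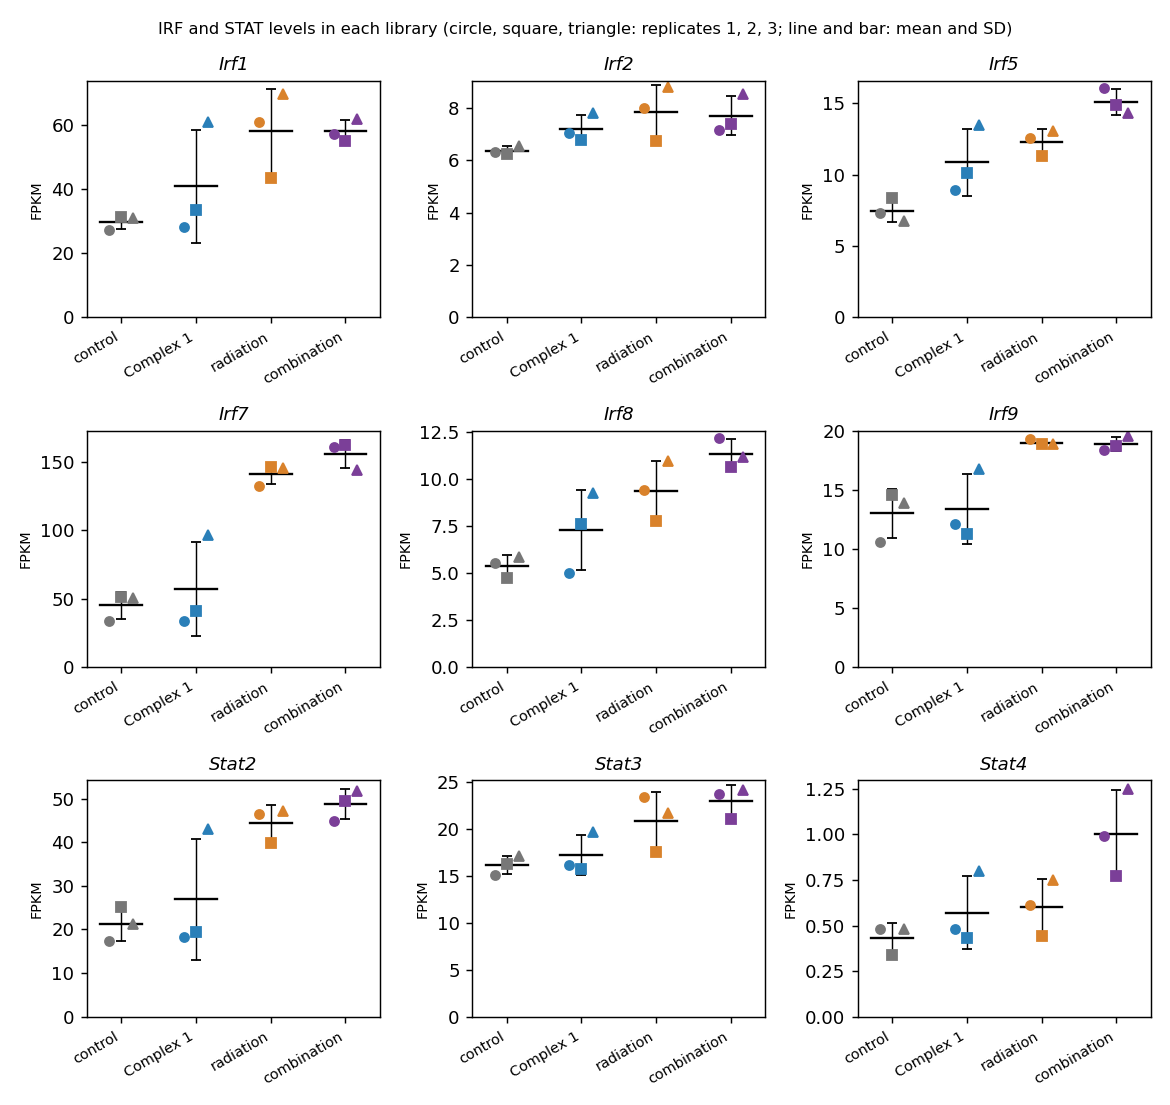
FPKM of the 9 genes in each library (y axes, linear, from 0) by group (x axes); symbols are replicates 1 to 3, lines and bars the mean and SD of 3 libraries. Irf7 in both irradiated groups is at 133 FPKM or above, against at most 96.9 in the others, and Complex 1 replicate 3 is the highest Complex 1 library in every panel.

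The proteins of the interferon complex come first. Over both levels of Complex 1, radiation raised Stat2 by 0.93 ± 0.18 (log2 fold change ± SE) and Irf9 by 0.50 ± 0.10, and both had an adjusted p of 0.0024. Here and in what follows, changes and p-values come from the edgeR quasi-likelihood test, adjusted over all 13668 genes by the Benjamini-Hochberg method. Stat2, the partner that carries the activation domain of the complex, was at 17.45, 25.15 and 21.2 FPKM in control, 18.2, 19.5 and 42.9 in Complex 1, 46.4, 39.7 and 47.2 in radiation, and 44.9, 49.5 and 51.7 in combination libraries. Control and irradiated libraries did not overlap, and 1 Complex 1 library, replicate 3, lay within the irradiated range. Irf9, the DNA-binding part of the complex, was at 10.6, 14.6 and 13.9 FPKM in control, 12.1, 11.3 and 16.8 in Complex 1, 19.3, 18.9 and 18.9 in radiation, and 18.4, 18.8 and 19.6 in combination libraries. All 6 irradiated libraries lay above all 6 others, within a narrow band of 18.4 to 19.6 FPKM. Irf9 shares a stretch of its locus with Rnf31 on the same strand (7.95 to 14.7 FPKM), and reads there may have been split between these genes.

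Irf7, an interferon-induced factor that in turn drives interferon alpha genes, had the largest radiation effect of the 8 tested members. It was at 33.6, 51.2 and 50.6 FPKM in control, 33.95, 41.4 and 96.9 in Complex 1, 133, 147 and 145 in radiation, and 161, 162 and 144 in combination libraries. All 6 irradiated libraries exceeded all 6 others, and Complex 1 replicate 3 lay between the sets. The radiation effect over both levels of Complex 1 was 1.52 ± 0.21 (adjusted p = 0.00031, edgeR). Irf7 rose by 1.62 ± 0.30 in radiation against control (adjusted p = 0.0048) and by 1.74 ± 0.30 in the combination against control (adjusted p = 0.0016). The Irf7 end overlaps Phrf1 on the other strand, which was at 11.8 to 14.4 FPKM in all libraries, and the sources used here do not name the strand setting of the counting.

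Irf1, the activator at interferon gamma targets, rose by 0.71 ± 0.16 with radiation over both levels of Complex 1 (adjusted p = 0.0069, edgeR). Its levels were 27.3, 31.3 and 30.9 FPKM in control, 28.2, 33.7 and 61.2 in Complex 1, 61.1, 43.7 and 69.8 in radiation, and 57.5, 55.2 and 62.0 in combination libraries. Control and irradiated libraries did not overlap, but Complex 1 replicate 3 matched the irradiated level and radiation replicate 2 was the lowest of the irradiated libraries. Irf2, its competitor, was at 6.34, 6.23 and 6.57 FPKM in control, 7.05, 6.79 and 7.81 in Complex 1, 8.02, 6.73 and 8.81 in radiation, and 7.17, 7.40 and 8.56 in combination libraries. The Irf2 radiation effect was 0.17 ± 0.07 (adjusted p = 0.085), and it did not pass in any of the 8 comparisons. It passed for the radiation effect without radiation replicate 2 (0.23, adjusted p = 0.017) and without Complex 1 replicate 3 (0.21, adjusted p = 0.049). Over the alternatives tried, its adjusted p in that comparison ran from 0.0069 to 0.19. The lowest was found with both of these libraries left out together, a setting added after the data were seen.

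Irf5 and Irf8, the members most tied to macrophages and dendritic cells, both rose with radiation. Irf5, which carries Toll-like receptor signals to cytokine genes, was at 7.29, 8.36 and 6.76 FPKM in control, 8.94, 10.1 and 13.5 in Complex 1, 12.6, 11.35 and 13.1 in radiation, and 16.1, 14.9 and 14.3 in combination libraries. Every library of the other 3 groups lay above the control range, and the combination libraries were above all others. The radiation effect on Irf5 was 0.57 ± 0.10 (adjusted p = 0.00092, edgeR). Irf8 was at 5.51, 4.74 and 5.84 FPKM in control, 5.02, 7.60 and 9.22 in Complex 1, 9.39, 7.76 and 10.96 in radiation, and 12.2, 10.6 and 11.2 in combination libraries. Irradiated and control libraries did not overlap, while Complex 1 replicate 3 fell within the radiation range. The radiation effect on Irf8 was 0.70 ± 0.13 (adjusted p = 0.0016).

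Macrophage markers moved with these 2 genes. The summed level of 10 macrophage markers was 520 to 566 FPKM in control, 675 to 763 in Complex 1, 874 to 992 in radiation and 939 to 994 with both treatments. Of the 10, 6 were higher in radiation than in control, 7 in the combination and 1 in Complex 1. Of all tested genes, 7.39%, 11.9% and 0.717% were called higher in the same order. Of 8 conventional dendritic cell markers only 2 could be tested, and their summed level was 4.52 to 9.34 FPKM over all libraries. B cell markers summed to at most 3.56 FPKM. Plasmacytoid dendritic cell markers summed to 1.79 to 7.78 FPKM in control and 2.41 to 3.62 in Complex 1. Their sum was 0.74 to 1.67 FPKM in radiation and 0.73 to 1.14 in the combination. Most of the control sum was Cox6a2, at 1.41 to 7.38 FPKM in control and 0.09 to 0.62 in the combination. Cox6a2, the 1 of 6 that could be tested, was lower in the combination than in control by edgeR (-3.15). Siglech, at most 0.47 FPKM, was at 0 to 0.13 in control and 0.17 to 0.22 in the combination. Ccr9, Pacsin1 and Klk1 also had no lower range there, whereas Ly6d reached 0.91 FPKM in control and 0.14 in the combination. The part of these cell types in the Irf5 and Irf8 values was not tested. About 12.3% of the 31-base sequences of Irf5 occur in another locus, and its end overlaps Tnpo3 on the other strand (13.4 to 15.1 FPKM).

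Stat3, the carrier of interleukin 6 family signals, changed least of the 7 members that rose with radiation, by 0.37 ± 0.08 (adjusted p = 0.0047, edgeR). It was at 15.1, 16.2 and 17.1 FPKM in control, 16.2, 15.8 and 19.7 in Complex 1, 23.4, 17.6 and 21.65 in radiation, and 23.8, 21.0 and 24.1 in combination libraries. Radiation replicate 2 lay just above the control range and below Complex 1 replicate 3. In radiation against control Stat3 differed by 0.34 ± 0.11 and did not pass (adjusted p = 0.062), and it passed without radiation replicate 2 (0.46, adjusted p = 0.016) or without Complex 1 replicate 3 (0.34, adjusted p = 0.033). In the combination against control it rose by 0.46 ± 0.11 (adjusted p = 0.011). Over the alternatives tried, the adjusted p of the radiation against control value ran from 0.0024 to 0.23. The lowest came from leaving out Complex 1 replicate 3 and radiation replicate 2 together, a setting added after the data were seen.

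Stat4, the interleukin 12 factor of T and natural killer cells, was the lowest member. It was at 0.48, 0.34 and 0.48 FPKM in control, 0.48, 0.43 and 0.80 in Complex 1, 0.61, 0.44 and 0.75 in radiation, and 0.99, 0.77 and 1.25 in combination libraries, from 25 to 91 counts each. The combination libraries lay above all control and radiation libraries, while Complex 1 replicate 3 reached into their range. With a filter of at least 10 counts in at least 3 libraries, added after the data were seen, Stat4 rose by 1.15 ± 0.30 in the combination against control (edgeR adjusted p = 0.014 over 16307 genes, of which 10.8% were called higher). Against radiation the combination differed by 0.73 ± 0.29 and did not pass (adjusted p = 0.42). Summed levels of 7 natural killer cell markers were 14.1 to 19.3 FPKM in control and 15.1 to 37.9 in Complex 1. They were 19.8 to 38.7 FPKM in radiation and 42.7 to 49.6 in the combination. Sums of 10 T cell markers were 15.1 to 17.3, 13.8 to 34.1, 9.50 to 32.6 and 30.5 to 41.5 FPKM in the same order. The part of these cells in the Stat4 value was not tested. About 23.7% of the 31-base sequences of Stat4 occur in another locus.

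**Figure D2:**
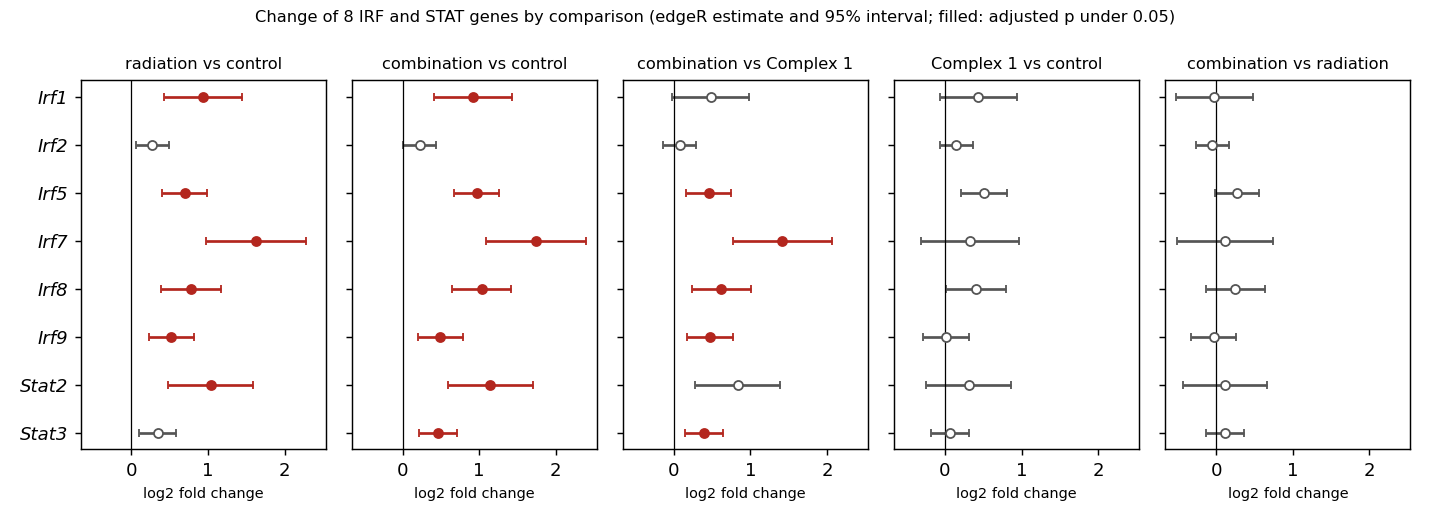
Log2 fold changes of the 8 tested members (edgeR) with 95% intervals (x axis) in the 5 comparisons between pairs of groups; filled points have an adjusted p under 0.05. Radiation against control and the combination against control have points to the right of 0 for every member, whereas every interval for the combination against radiation includes 0.

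Counted over the 8 tested members, 6 rose in radiation against control, where 7.39% of all 13668 genes were called higher and 5.86% lower, and none fell. Scaled by library totals alone, 1157 genes in all were called higher and 587 lower, against 1010 and 801. The members' median change was 0.74, and that of all tested genes -0.01. These were Irf1 (0.94 ± 0.23, adjusted p = 0.021), Irf5 (0.69 ± 0.14, adjusted p = 0.0066), Irf7, Irf8 (0.78 ± 0.18, adjusted p = 0.015), Irf9 (0.52 ± 0.14, adjusted p = 0.026) and Stat2 (1.03 ± 0.26, adjusted p = 0.020). Irf5 and Irf7 passed with each library left out in turn. Without control replicate 1, Irf1 (adjusted p = 0.077), Irf9 (0.097) and Stat2 (0.082) did not pass. Without radiation replicate 1 the same 3 genes did not pass (adjusted p = 0.064, 0.076 and 0.062), and without radiation replicate 3 Irf8 joined them (Irf1 0.074, Irf8 0.056, Irf9 0.059, Stat2 0.056). Without control replicate 2, Irf1 (0.054) and Irf8 (0.060) did not pass. The number of members called thus ran from 2 to 8 with 1 library left out, the 8 being reached without radiation replicate 2, where Irf2 (adjusted p = 0.020) and Stat3 also passed.

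In the combination against control 7 of 8 members rose and none fell, beside 11.9% of all tested genes called higher and 10% lower, with medians of 0.94 and -0.01. Scaled by library totals alone, 1932 genes in all were called higher and 903 lower, against 1620 and 1373. Irf8 rose by 1.03 ± 0.18 (adjusted p = 0.0016), Irf5 by 0.97 ± 0.14 (adjusted p = 0.00045) and Stat2 by 1.15 ± 0.26 (adjusted p = 0.0070). Irf1 rose by 0.92 ± 0.23 (adjusted p = 0.014) and Irf9 by 0.49 ± 0.14 (adjusted p = 0.021), and Irf2 did not pass (0.23 ± 0.10, adjusted p = 0.13). Irf1 no longer passed without control replicate 1 (adjusted p = 0.051), nor did Irf9 without control replicate 1 (0.086), combination replicate 2 (0.051) or combination replicate 3 (0.063). This comparison and the preceding one share the control libraries. For the radiation effect over both levels of Complex 1, 7 of 8 members rose and none fell, beside 13.3% of all genes called higher and 13.2% lower, and these 7 calls held under every alternative run, each single library left out included.

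Complex 1 without radiation gave no member that passed (0 of 8, edgeR), beside 0.717% of all tested genes called higher and 0.0951% lower. At an unadjusted p under 0.05 there were 2 members, Irf5 (0.51 ± 0.14, adjusted p = 0.12) and Irf8 (0.41 ± 0.18, adjusted p = 0.38), and DESeq2 called 1, Irf5 (adjusted p = 0.026). Without Complex 1 replicate 1 both Irf5 (0.63, adjusted p = 0.037) and Irf8 (0.62, adjusted p = 0.049) passed, so that 2 of 8 members were called. In Complex 1 replicate 3 all 9 genes were highest of the group. In that library Irf7 was 2.57 times the mean of the other 2 Complex 1 libraries, Stat2 2.28 times, Irf1 1.98 times and Stat4 1.76 times. Irf8, Irf9 and Irf5 were 1.46, 1.43 and 1.42 times that mean, Stat3 1.24 times and Irf2 1.13 times. Irf7, Stat2 and Irf1 were thus the most raised in this library, and Irf2 and Stat3 the least. Without it the Complex 1 difference was -0.29 for Irf7, -0.21 for Stat2 and -0.19 for Irf9, against 0.32, 0.31 and 0.02 with it. Also without replicate 3, the difference was 0.02 for Irf1 against 0.43, 0.20 for Irf8 against 0.41 and 0.32 for Irf5 against 0.51.

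Other genes were also high in that library. Ifng, which encodes interferon gamma, was at 3.25 FPKM there against 0.77 and 0.69 FPKM in the other Complex 1 libraries, and Ifnb1, encoding interferon beta, had 9 counts against 1 and 1. The summed level of 10 T cell markers was 34.1 FPKM against 13.8 and 17.2, and that of natural killer markers 37.9 FPKM against 15.1 and 19.3. In radiation replicate 2 the opposite held for Irf1 (0.667 times the mean of the other 2), Stat4 (0.647 times), Irf8 (0.763 times) and Stat3 (0.779 times), but Irf7 was at 1.06 and Irf9 at 0.988 times. There Ifng was at 0.77 FPKM against 2.58 and 2.49, and T cell markers summed to 9.50 FPKM against 32.6 and 29.5. The part of these cells and ligands in the spread of the members was not tested.

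Adding Complex 1 to radiation gave no member that passed (0 of 8 by edgeR, 0 at an unadjusted p under 0.05, and 0 by DESeq2), beside 0.615% of all tested genes called higher and 0.0366% lower. Over all tested genes, 1411 had an unadjusted p under 0.05 there, and DESeq2 called 187. The 95% interval of the difference was -0.51 to 0.75 for Irf7, -0.43 to 0.66 for Stat2, -0.52 to 0.48 for Irf1 and -0.32 to 0.26 for Irf9. For Irf5, the member nearest to a call, the difference was 0.27 ± 0.13 (adjusted p = 0.51) with an interval of -0.01 to 0.56. These intervals leave room for changes in either direction for most members. Over both levels of radiation, Complex 1 was associated with 1 called member of 8, Irf5 (0.39 ± 0.10, adjusted p = 0.048), beside 2.26% of all genes called higher and 0.512% lower. That call was lost in 11 of the 12 fits that left out 1 library, Complex 1 replicate 1 being the exception, with adjusted p up to 0.12.

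Adding radiation to Complex 1 raised 5 of 8 members and lowered none, beside 4.73% of all tested genes called higher and 5.25% lower. Irf7 rose by 1.42 ± 0.30 (adjusted p = 0.011, edgeR), Irf8 by 0.62 ± 0.18 (adjusted p = 0.044), Irf9 by 0.48 ± 0.14 (adjusted p = 0.044), Irf5 by 0.46 ± 0.13 (adjusted p = 0.049) and Stat3 by 0.40 ± 0.11 (adjusted p = 0.043). Stat2 (0.83 ± 0.26, adjusted p = 0.056) and Irf1 (0.48 ± 0.23, adjusted p = 0.21) did not pass. Most of these lie near the threshold: without Complex 1 replicate 2 none of the 8 passed (Irf7 adjusted p = 0.055), and without Complex 1 replicate 3 there were 7, with Stat2 at 1.35 (adjusted p = 8.0e-05) and Irf1 at 0.90 (adjusted p = 0.0027). With only the 6 libraries compared, 2 passed. The interaction, which asks whether the radiation effect differs with the compound, called 0 of 8 members and 0% of all genes with edgeR, 0 members at an unadjusted p under 0.05, and 0 members with DESeq2. Over all tested genes, 600 had an unadjusted p under 0.05 for the interaction, and DESeq2 called 6.

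Ratios between some members differed between groups, which restates their unequal changes. Ratios of FPKM within a library are given for 4 pairs chosen after their values were seen, as geometric means and without a test. Irf7 to Irf9 was 3.44 in control, 3.90 in Complex 1, 7.44 in radiation and 8.23 in the combination, and irradiated libraries (6.88 to 8.76) did not overlap the others (2.80 to 5.78). Irf1 to Irf2, activator to competitor, was 4.67, 5.38, 7.32 and 7.56 in the same order. Stat2 to Stat3 was 1.31, 1.45, 2.14 and 2.12. Irf9 to Stat2, the partners of the interferon complex, went the other way, from 0.612 in control through 0.531 and 0.429 to 0.388 in the combination. In the last 3 pairs only Complex 1 replicate 3 entered the irradiated range, with an Irf1 to Irf2 ratio of 7.83, a Stat2 to Stat3 ratio of 2.18 and an Irf9 to Stat2 ratio of 0.391.

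**Figure D3:**
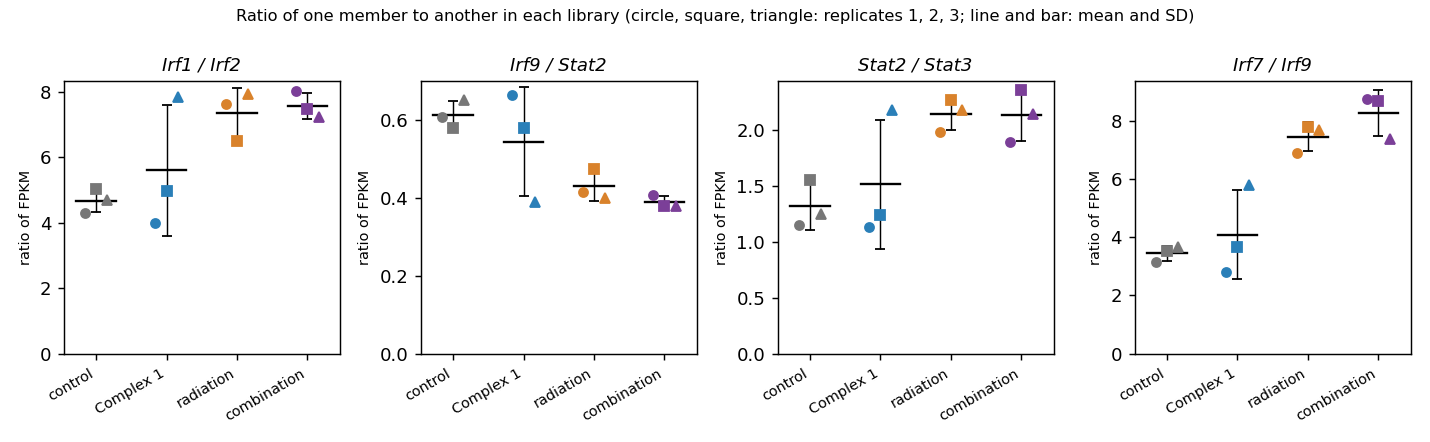
Ratio of FPKM of 2 members within each library (y axes, linear) by group (x axes) for 4 pairs; symbols are replicates 1 to 3, lines and bars the mean and SD of 3 libraries. Irf7 to Irf9 is at 6.88 or above in every irradiated library and at most 5.78 in the others.

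The genes above and below these factors were taken from lists chosen by role, with earlier results of these data known. Counts from such lists describe the listed genes and are no independent test. Of all tested genes, 7.39% were called higher in radiation against control, 11.9% in the combination against control and 0.615% in the combination against radiation, and the counts of each list stand beside these shares. All 23 type I interferon targets on the list rose in radiation against control and all 23 in the combination against control, with median changes of 1.25 and 1.42. Mx1, an antiviral GTPase, rose by 2.05 ± 0.32 (adjusted p = 0.0021, edgeR) and 1.99 ± 0.32 (adjusted p = 9e-04), and Ifi44 by 1.55 ± 0.26 in radiation (adjusted p = 0.0034). None of the 23 passed for Complex 1 alone or for the combination against radiation. Of 21 interferon gamma targets, 7 rose in radiation and 12 in the combination, with medians of 1.10 and 1.13. Cxcl10, a chemokine for activated T cells, rose by 2.01 ± 0.30 (adjusted p = 0.0016) and 2.05 ± 0.30 (adjusted p = 5e-04) in these comparisons, and Icam1, an adhesion molecule, by 1.14 ± 0.19 (adjusted p = 0.0027) and 1.38 ± 0.19 (adjusted p = 4e-04).

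STAT3 targets did not move as a block. Of 19 tested, 1 rose and 3 fell in radiation against control, 7 rose and 3 fell in the combination against control, and 4 rose and none fell in the combination against radiation. The 1 of 19 higher in radiation lies near the share of all tested genes (7.39% higher, 5.86% lower). Il4ra, the interleukin 4 receptor chain, rose by 0.50 ± 0.09 in radiation (adjusted p = 0.0045), and Myc, a growth regulator that other pathways also control, fell by 0.62 ± 0.11 on the log2 scale (adjusted p = 0.0034). Of 7 tested STAT4 targets, 1 rose in radiation and 3 in the combination, among them Prf1, the pore protein of cytotoxic cells, by 1.53 ± 0.41 (adjusted p = 0.028) and 2.09 ± 0.41 (adjusted p = 0.0033). The Prf1 call in radiation, the single one of that list, was lost without control replicate 1 (adjusted p = 0.099), control replicate 2 (0.096), radiation replicate 1 (0.11) or radiation replicate 3 (0.070).

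The ligands Osm, Lif and Il6, which signal through STAT3, rose in the combination against radiation, a comparison in which Stat3 itself differed by 0.12 (95% interval -0.13 to 0.36) and did not pass. Of 14 ligands 6 could be tested: none passed in radiation against control, 3 rose in the combination against control and the same 3, Osm, Lif and Il6, rose in the combination against radiation, while Il11, Il27 and Ifng did not pass there. Osm, oncostatin M, was at 1.27, 1.11 and 1.12 FPKM in control, 2.48, 3.84 and 2.47 in Complex 1, 1.25, 1.72 and 1.94 in radiation, and 8.69, 4.71 and 6.77 in combination libraries. The combination libraries were above all others, and Complex 1 libraries above control and radiation. Osm rose by 2.02 ± 0.24 in the combination against radiation (adjusted p = 0.0043, edgeR), a call that held with each library left out. In Complex 1 against control it rose by 1.29 ± 0.26 (adjusted p = 0.039). That call was lost in 7 of the 12 fits that left out 1 library.

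Lif, leukaemia inhibitory factor, averaged 5.19 FPKM in radiation and 11.1 in the combination and rose by 1.08 ± 0.18 (adjusted p = 0.016, up to 0.084 with another setting or a library left out). Il6, interleukin 6, had 8 to 20 counts per radiation library and 191, 49 and 58 counts per combination library, and rose by 3.18 ± 0.56 (adjusted p = 0.022). The Il6 call was lost without any 1 of the radiation libraries, and the Lif call without radiation replicate 1, radiation replicate 2 or combination replicate 1. Socs3, the feedback inhibitor that STAT3 induces, was at 35.3, 28.9 and 31.4 FPKM in control, 38.7, 43.5 and 48.6 in Complex 1, 34.5, 32.0 and 43.5 in radiation, and 91.7, 68.5 and 70.1 in combination libraries. The combination libraries were above all others, and Socs3 rose by 1.05 ± 0.14 against radiation (adjusted p = 0.0050) under every alternative run. Summed neutrophil markers were also highest in the combination: 7 summed to 10.6 to 18.4 FPKM in control and 88.2 to 197 in Complex 1. Their sum was 9.47 to 34.0 FPKM in radiation and 247 to 410 in the combination. In Complex 1 against control 5 of 6 tested markers were higher, beside 0.717% of all tested genes. Osm passed there too, but Lif, Il6 and Socs3 did not. Lif averaged 4.25 FPKM in control and 4.78 in Complex 1, and Il6 0.26 and 0.43 FPKM. Of the neutrophil markers 6 of 6 tested were higher in the combination than in radiation, beside 0.615% of all tested genes. Ly6g was at 0 in control and radiation. Their part in the result was not tested.

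**Figure D4:**
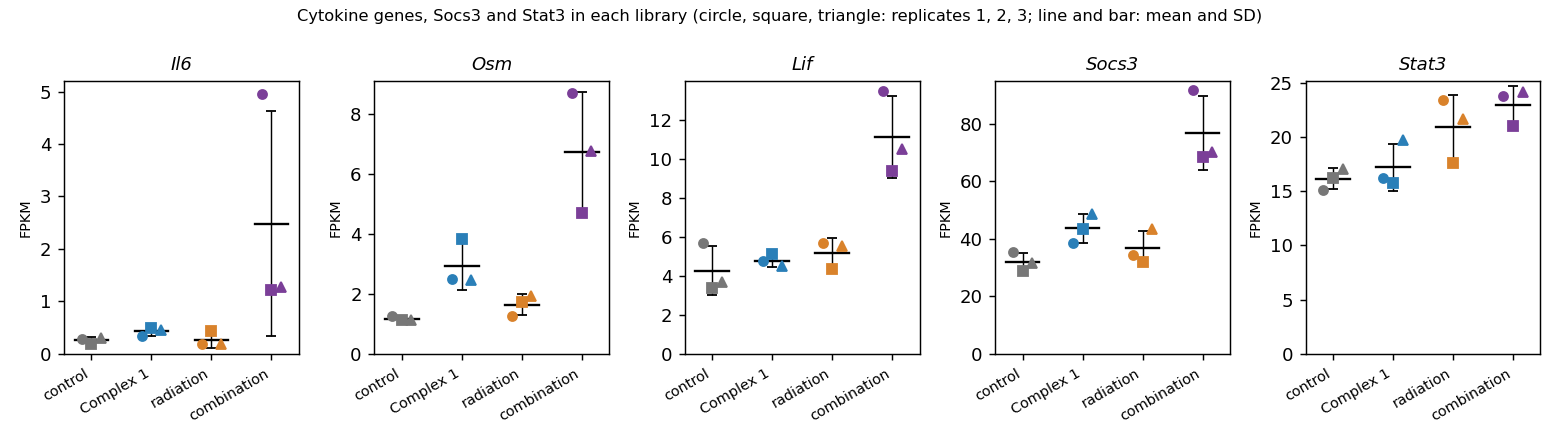
FPKM of Stat3, its inhibitor Socs3 and ligands of its receptors in each library (y axes, linear, from 0) by group (x axes); symbols are replicates 1 to 3, lines and bars the mean and SD of 3 libraries. Socs3 is at 68.5 FPKM or above in the combination and at most 48.6 elsewhere, whereas Stat3 in radiation (17.6 to 23.4 FPKM) overlaps the combination (21.0 to 24.1 FPKM).

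Among 11 tested receptors, 5 rose in radiation against control and 7 in the combination against control, beside 7.39% and 11.9% of all tested genes. Il21r, the interleukin 21 receptor, rose by 1.36 ± 0.23 (adjusted p = 0.0031, edgeR) and 1.44 ± 0.23 (adjusted p = 9e-04), and Il10ra, a chain of the interleukin 10 receptor found on leukocytes, by 0.87 ± 0.12 (adjusted p = 0.0013) and 1.13 ± 0.12 (adjusted p = 1e-04). Ifngr1, the ligand-binding chain for interferon gamma, rose by 0.39 ± 0.09 and 0.35 ± 0.09, and Ifnar2, a chain of the type I receptor, by 0.41 ± 0.08 in the combination. Of the 4 Janus kinases, Tyk2 passed in radiation (0.29 ± 0.08) and Jak1 in the combination (0.24 ± 0.06). The Tyk2 call was lost without any 1 of the control libraries (adjusted p = 0.092, 0.081 and 0.058), radiation replicate 1 (0.11) or radiation replicate 3 (0.091), and the Jak1 call in the fit without a filter on low values (0.097). Without control replicate 1, Ifngr1 did not pass in radiation (adjusted p = 0.056) or in the combination (0.050). Of 13 inhibitors 3 rose in radiation, among them Usp18, the brake on the type I receptor, by 1.11 ± 0.24 (adjusted p = 0.011). In the combination 7 of the 13 rose, Usp18 by 1.22 ± 0.24 (adjusted p = 0.0032) and Socs1 by 0.84 ± 0.24 (adjusted p = 0.023). Of these 7 calls, 4 were lost in some of the 12 fits that left out 1 library: Socs1 in 4 (control replicates 1 and 2, combination replicates 1 and 2, adjusted p up to 0.083), Ptpn1 in 4 (control replicates 2 and 3, combination replicates 1 and 3, up to 0.068), Pias3 in 5 (control replicates 1 and 3, radiation replicate 1, combination replicates 2 and 3, up to 0.13) and Cish in 1 (combination replicate 3, 0.056).

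Sensors and adaptors that activate IRFs rose in 8 of 18 cases in radiation and 12 of 18 in the combination, beside 7.39% and 11.9% of all tested genes, and none fell. Tlr7, the endosomal RNA receptor upstream of IRF7 and IRF5, rose by 1.14 ± 0.15 (adjusted p = 0.0010, edgeR) and 1.07 ± 0.15 (adjusted p = 4e-04), and Ddx58, the cytosolic RNA sensor RIG-I, by 0.87 ± 0.15 in radiation (adjusted p = 0.0036). Of 8 tested partner factors 4 rose in each comparison, Spi1, the myeloid factor PU.1 that pairs with IRF8, by 0.64 ± 0.12 (adjusted p = 0.0045) and 0.86 ± 0.12 (adjusted p = 3e-04). The interferon ligands themselves were low: Ifnb1 had at most 9 counts in any library and Ifng ranged from 0.59 to 3.4 FPKM.

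**Figure D5:**
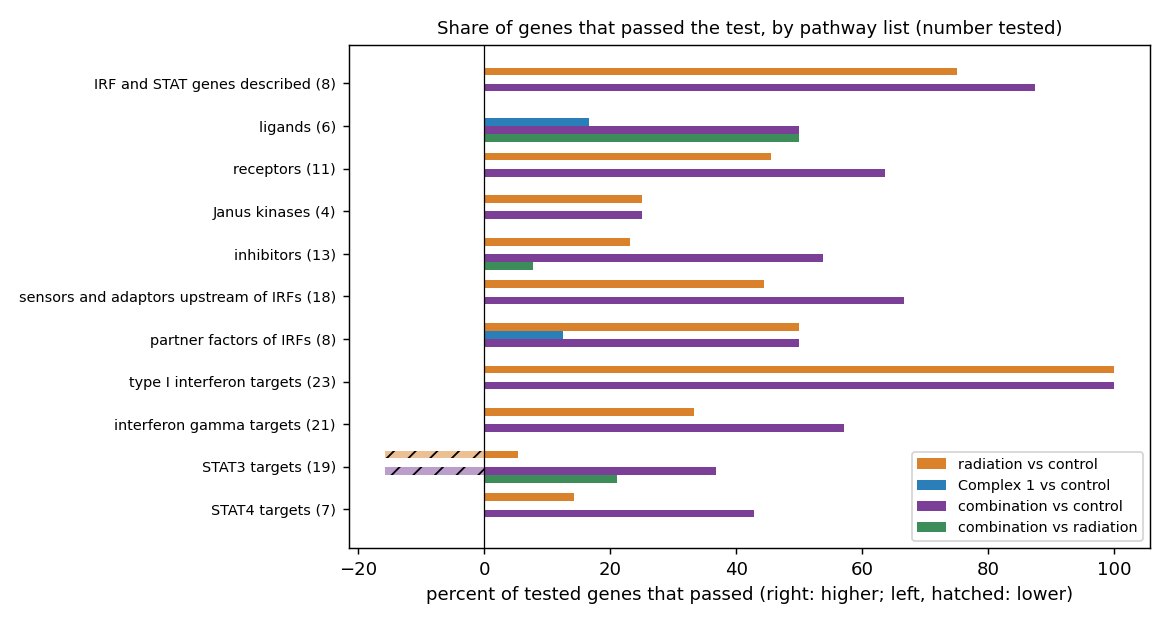
Percent of the tested genes of each list that passed (x axis; bars to the right higher, hatched bars to the left lower; number tested in brackets on the y axis) in 4 comparisons. All 23 type I interferon targets passed in radiation and in the combination against control, and bars for the combination against radiation appear for ligands (3 of 6), inhibitors (1 of 13) and STAT3 targets (4 of 19) only.

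Across the 12 libraries the members were correlated with each other, from r = 0.602 for Irf9 and Stat4 to 0.974 for Irf7 and Stat2 (Pearson, log2 of TMM-scaled counts, n = 12, a description over libraries that share groups). Irf2 and Irf7 were at 0.625. For a comparison with other genes, the members themselves, pseudogenes, predicted or clone-named genes and antigen receptor segments were left out. Among the 11261 genes that remained, the genes most like each member in the same measure differed by member. For Irf7 these were Ifit3b (0.995), Cmpk2 (0.995) and Ddx58 (0.993), and for Stat2 Parp14 (0.991), Xaf1 (0.991) and Oasl2 (0.990). For Irf9 they were Sp100 (0.982), Oasl2 (0.981) and Phf11d (0.979), and for Irf1 Serpina3g (0.982), Cd274 (0.981) and Gbp5 (0.980). For Irf5 they were Ctsh (0.987), Fcgr1 (0.983) and Pik3ap1 (0.983), and for Irf8 Adap2 (0.978), Rac2 (0.972) and Unc93b1 (0.972). Stat3 was most like Sh2d2a (0.982), Xdh (0.976) and Tmem140 (0.968). Irf2 was most like Jak3 (0.949), Cd82 (0.934) and Rhobtb2 (0.908), and Stat4 like Gpr171 (0.946), Nos2 (0.939) and Cyfip2 (0.939).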

How the data were processed

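Total RNA of 12 tumour libraries was prepared with the NEB Next Ultra RNA kit, per the labels' protocols. STAR 2.5.3a, HTSeq 2.0.1, DESeq2 and build mm39 are named in the submitters' processing notes, with no role given; the strand setting is not given in the sources used here. The deposited table holds raw counts per gene and library and, from the authors, FPKM, which recomputing gave within 0.005. Entries without a symbol (1492) held 0.0579% to 0.0706% of counts. Counts of the 13668 genes with FPKM of at least 1 in at least 3 libraries were scaled by TMM and tested with edgeR 4.0.16 (R 4.3.3) with 1 coefficient per group fitted to all 12 libraries, in 8 comparisons, with Benjamini-Hochberg adjustment and a threshold of 0.05. DESeq2 1.42.0 was an alternative, and others were other scalings, no filter, only the groups compared, a replicate block and each library left out. The code was tested on simulated counts. Members, gene lists and the rule for named genes (all members, the 2 smallest p per list in radiation or combination against control, every ligand, receptor, kinase or inhibitor that passed, and the 3 most correlated genes per member) were chosen with earlier results of these data known. Promoters are from RefSeq (GRCm38.p6), and motif cores were searched on both strands.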

Additional observations from a re-analysis of the deposited data

How the results depend on the processing

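Each result for a member was recomputed under other scalings, filters, sample sets and DESeq2. Of these values, apart from 2 settings added after the data were seen, 1003 kept their direction and side of the threshold, 68 were no longer past it, 31 were newly past it and 26 changed sign. Where no cause is given, the cause was not tested.

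With 1 library left out, the number of members called of 8 ran from 2 to 8 in radiation against control, 0 to 2 in Complex 1 against control, 0 to 7 in the combination against Complex 1, and 0 to 2 for the Complex 1 effect across radiation levels. Leaving a library out gave Complex 1 against control values of -0.29 to 0.59 for Irf7, -0.19 to 0.13 for Irf9, -0.21 to 0.53 for Stat2 and -0.049 to 0.13 for Stat3. The combination against radiation ran from -0.19 to 0.13 for Irf1 and -0.15 to 0.044 for Irf2. The Complex 1 effect across radiation levels ran from -0.089 to 0.35 for Irf7, -0.11 to 0.051 for Irf9 and -0.048 to 0.32 for Stat2. The interaction ran from -0.47 to 0.41 for Irf7, -0.37 to 0.056 for Irf8, -0.16 to 0.16 for Irf9, -0.41 to 0.32 for Stat2 and -0.061 to 0.17 for Stat3.

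Without Complex 1 replicate 3 and radiation replicate 2 together, a setting added after the data were seen, Complex 1 against control was -0.30 for Irf7, -0.19 for Irf9, -0.21 for Stat2 and -0.049 for Stat3. The Complex 1 effect across radiation levels was -0.086 for Irf1, -0.032 for Irf2, -0.077 for Irf7, -0.086 for Stat2 and -0.022 for Stat3, with 0 members called, as with the added filter on counts (0). The interaction was 0.44 for Irf7, 0.15 for Irf9 and 0.24 for Stat2. With library totals as the only scaling, Irf1 was at 0.00071 in the combination against radiation and Irf9 at 0.016 for the effect of Complex 1. Without a filter, Irf9 was at -0.0035 in Complex 1 against control, and 5 members passed there, 5 for the effect of Complex 1 and 1, Irf1, for the interaction (adjusted p = 0.049). That fit gave standard errors far below those reported (0.08 against 0.30 for Irf7 in radiation against control) and implausibly small p-values, so its calls carry little weight. DESeq2 called 1 member in Complex 1 against control, and the fit with only the groups compared called 2 in the combination against Complex 1.

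The labels do not say whether replicate numbers pair the libraries. Deviations of same-numbered libraries from their group means correlated at -0.20 to 0.16, and in 0 of 6 pairs of groups was every correlation above 0.1. With means of 3 libraries this check is weak and cannot exclude pairing. With a replicate block, 8 members passed in radiation against control and for the radiation effect, 7 in the combination against control, 5 in the combination against Complex 1, 0 for the effect of Complex 1, and 0 in the other 3 comparisons. Over all genes, calls with a filter ran from 865 to 2147 in radiation against control (1811 as reported), 4 to 326 in Complex 1 against control (111), 25 to 187 in the combination against radiation (89), 582 to 2156 in the combination against Complex 1 (1364), 198 to 667 for the effect of Complex 1 (379) and 0 to 6 for the interaction (0). The fit without a filter, with its implausible p-values, gave 2692, 803, 529, 2285, 1262 and 163 in the same order. Counts of 25 to 91 per library limit what can be seen of Stat4.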
